A study of Mus musculus with 2 samples.

Results

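The 10 genes described here are the Notch ligands *Dll1*, *Dll4*, *Jag1* and *Jag2*, the receptors *Notch1*, *Notch2*, *Notch3* and *Notch4*, and the target genes *Hey1* and *Hes1*. They were taken by name from the gene table of 27998 genes, and all 10 were present in both libraries. Lungs of wild-type C57BL/6 mice (C57BL/6J in the methods of the study) were collected at postnatal day 14, when the mice were 2 weeks old. One group was kept in room air (21% oxygen) and the other in hyperoxia (80% oxygen) from birth to day 14. The lungs of 8 mice were dissociated with enzymes and pooled into 1 single-cell RNA sequencing (scRNA-seq) library per group. Neither group therefore had a replicate, a difference between the groups cannot be told apart from a difference between the 2 libraries, and no test between them was made.

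Notch receptors sit in the membrane of one cell and are bound by ligands in the membrane of a neighbouring cell. Binding leads to cleavage of the receptor by ADAM proteases and gamma-secretase. The freed intracellular domain then enters the nucleus and, with the DNA-binding protein RBPJ and Mastermind-like coactivators, switches on targets such as *Hes1* and *Hey1*, which encode transcriptional repressors. In blood vessels the pathway is known for setting arterial identity and for limiting sprouting through *Dll4*, and *Notch3* is the receptor of vascular mural cells (pericytes and smooth muscle).

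Each counted molecule carried a unique molecular identifier (UMI). The room air library held 4234 barcodes and 39593888 UMIs, and the hyperoxia library 13223 barcodes and 111934936 UMIs. After the filters and the removal of likely doublets, 3680 and 10472 cells remained, with medians of 8067 and 7227.5 UMIs, and 12 of these barcodes occurred in both libraries. Cells were clustered without the Notch pathway genes and clusters were named from markers, as endothelial-like, stromal-like, epithelial-like, myeloid-like or lymphocyte-like and then as 24 cell types, of which 21 had at least 20 cells in each library. The 8 endothelial markers together reached 5865 to 16283 CPM (counts scaled to 1000000 UMIs) in the named endothelial types and 17.3 to 611 CPM in the named types of other lineages. The libraries separated within several types, so that gCap-like cells came mostly from cluster 1 in room air (501 of 655 cells) and from cluster 0 in hyperoxia (694 of 967 cells).

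Levels are given as CPM over the UMIs summed over the cells of a type, with exact Poisson 95% intervals in parentheses. Since the counts are of 3′ ends, they do not scale with gene length, and levels are compared here between cell types and libraries and not between genes. A gene was counted as lower or higher in hyperoxia when the mean of its CPM values in the 2 libraries was at least 10, its ratio lay past 1.5-fold, and the exact 95% interval of the ratio excluded 1. A gene with 1 library under 10 CPM could thus pass this floor only through the library in which it was higher, as happened in 4 of the 28 pairs of a member and a type counted as lower and in 1 of the 3 counted as higher, and these pairs are marked where they appear. All intervals cover counting error only and not differences between mice or libraries.

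On the mouse genome GRCm38 (GENCODE M21), *Notch1* lies on the minus strand of chromosome 2 (26457903 to 26516663), *Dll4* on the plus strand of chromosome 2 (119325784 to 119335962) and *Jag1* on the minus strand of chromosome 2 (137081456 to 137116644). Chromosome 3 holds *Hey1* (minus, 8663359 to 8667256) and *Notch2* (plus, 98013527 to 98150361). *Jag2* is on chromosome 12 (minus, 112907819 to 112929776) and *Hes1* on chromosome 16 (plus, 30064384 to 30067796). Chromosome 17 holds *Dll1* (minus, 15367354 to 15376872), *Notch3* (minus, 32120820 to 32166852) and *Notch4* (plus, 34564268 to 34588503). On the same strand, only *Jag2* and *Notch1* (1 microRNA gene each) and *Notch2* (2 gene models marked as to be experimentally determined) overlap another annotated gene.

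Of the 10 genes, 8 matched an entry of the RefSeq promoter table (build GRCm38.p6), with *Dll1* matching 2 entries, and *Hes1* and *Hey1* matched none. Those of *Dll4*, the ligand that was lower in endothelial-like cells of hyperoxia, and *Notch3*, the receptor found almost only in stromal-like cells, are shown as the 250 bases before the RefSeq start. Capitals mark GC boxes (GGGCGG on either strand).
Dll4, chr2:119325534-119325783, plus strand: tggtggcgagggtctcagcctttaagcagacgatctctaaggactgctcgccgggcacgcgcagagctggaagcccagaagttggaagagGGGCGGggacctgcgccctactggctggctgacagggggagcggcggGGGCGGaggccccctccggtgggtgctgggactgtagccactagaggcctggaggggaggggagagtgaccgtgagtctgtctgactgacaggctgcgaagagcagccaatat
Notch3, chr17:32166891-32167140, minus strand: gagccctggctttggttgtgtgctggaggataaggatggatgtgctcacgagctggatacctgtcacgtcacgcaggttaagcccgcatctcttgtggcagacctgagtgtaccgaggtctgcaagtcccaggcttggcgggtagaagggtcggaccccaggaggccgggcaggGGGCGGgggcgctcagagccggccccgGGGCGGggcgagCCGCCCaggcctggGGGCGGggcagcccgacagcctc

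GC boxes were found 2 times in the *Dll4* window and 4 times in the *Notch3* window, and 5 of the 9 entries of the members held at least 1, against 32.7% of all 32851 entries over the same length. The letters TGGGAA on either strand, the core of the site bound by RBPJ, were in none of the 9 entries and in 21.6% of all entries. CACGTG, an E-box, was likewise in none of the 9 and in 6.02% of all. These searches cover 250 bases only and say nothing of sites elsewhere.

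**Figure D1:**
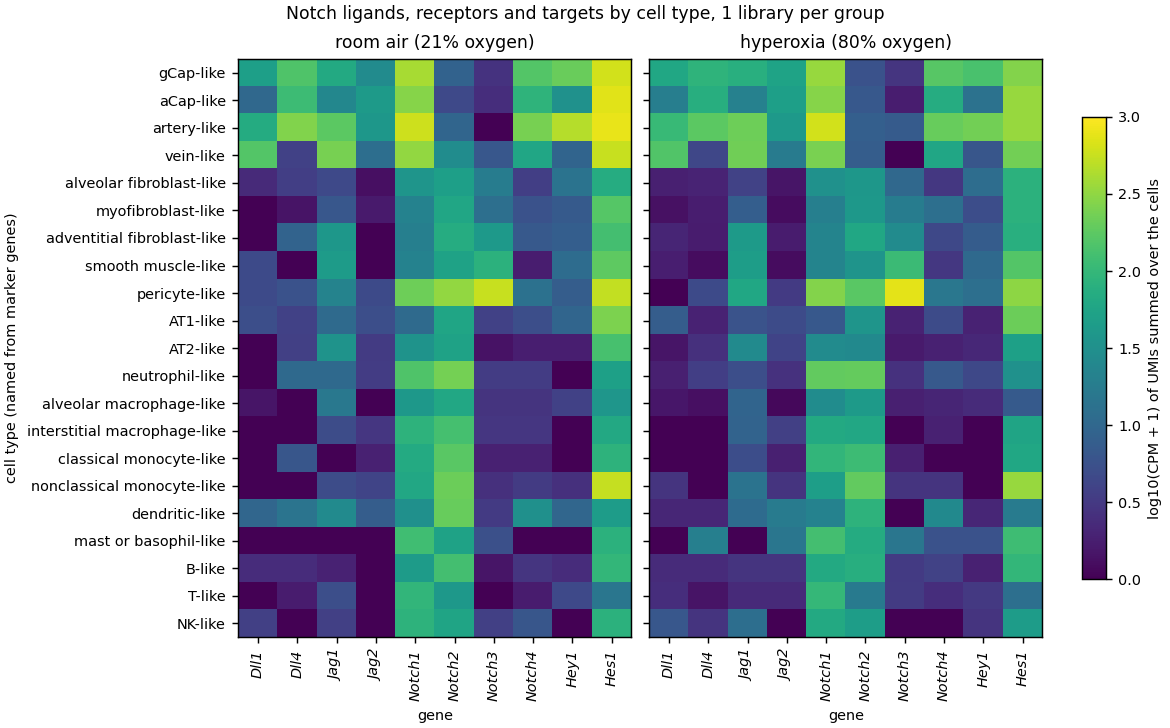
Each square gives the level of 1 gene (columns) in 1 of 21 cell types (rows) as log10(CPM + 1), for the room air library (left) and the hyperoxia library (right). *Dll1*, *Dll4*, *Jag2*, *Notch4* and *Hey1* had their highest levels among the endothelial-like types at the top, with *Dll4* and *Hey1* low in vein-like cells (2.77 and 8.30 CPM in room air), *Notch3* in pericyte-like cells (554 CPM in room air and 755 in hyperoxia), and *Hes1* was spread over all types.

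Most of the ligand message was endothelial. Endothelial-like cells held 91.0% of the *Dll4* UMIs of all cells in room air and 94.7% in hyperoxia, 88.8% and 89.7% of those of *Dll1*, and 78.4% and 88.7% of those of *Jag2*. *Jag1* was more widely spread, with 50.3% and 57.2% in endothelial-like, 16.2% and 21.1% in stromal-like and 22.2% and 13.4% in epithelial-like cells. B-like cells, with median depths of 4467 and 2910 UMIs, served as the background for free RNA. In them, *Dll1*, *Dll4*, *Jag1*, *Jag2*, *Notch3*, *Notch4* and *Hey1* were each at or below 2.96 CPM in both libraries. No background type was set for *Notch1*, *Notch2* and *Hes1*.

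The receptors divided among the lineages. *Notch4*, the endothelial receptor, had 87.9% and 88.8% of its UMIs in endothelial-like cells, and *Notch1* had 65.4% and 66.3% there. *Notch3* had 93.0% and 96.1% in stromal-like cells. *Notch2* was almost missing from endothelial-like cells (2.84% and 3.30% of its UMIs) and was shared among stromal-like (35.9% and 41.2%), myeloid-like (34.5% and 28.5%) and lymphocyte-like cells (16.5% and 15.7%). Of the targets, *Hey1* was endothelial (86.8% and 82.1%), whereas endothelial-like cells held 50.3% and 53.2% of the *Hes1* UMIs.

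Within the vessels, the ligands followed different orders. *Dll4* in room air was highest in artery-like cells (272 CPM, 231 to 317). The general capillary cells named gCap-like (148, 138 to 159) and the aerocyte capillary cells named aCap-like (113, 96.0 to 132) followed. Neighbouring intervals of these types did not overlap, and vein-like cells held only 2.77 CPM. The order was the same in hyperoxia, at 175, 88.5, 75.7 and 3.36 CPM. *Dll1* followed another order, with its highest level in vein-like cells (155 CPM, 117 to 201, and 153, 134 to 175, in hyperoxia) and 69.6 and 104 CPM in artery-like cells. *Jag1* was high in both large-vessel types, at 241 and 225 CPM in vein-like and 177 and 215 CPM in artery-like cells, whose intervals overlapped in both libraries. *Jag2* had its lowest value in vein-like cells (11.1 and 16.8 CPM), and the intervals of neighbours in the order of the other 3 types overlapped in both libraries.

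*Notch1* and *Notch4* were both highest in artery-like cells. *Notch1* stood at 596 CPM (535 to 662) there in room air and 615 (575 to 657) in hyperoxia, against 282 to 407 CPM in the other 3 endothelial types of room air. *Notch4* stood at 241 CPM (203 to 284) and 199 (177 to 224) in artery-like, 155 and 166 in gCap-like, 89.1 and 71.9 in aCap-like, and 58.1 and 59.2 CPM in vein-like cells. *Hey1*, an arterial target, was uneven as well, at 462 CPM (409 to 520) in artery-like, 206 (194 to 219) in gCap-like, 31.9 (23.2 to 42.8) in aCap-like and 8.30 CPM in vein-like cells of room air. *Hes1* differed far less among them, from 556 CPM (482 to 638) in vein-like to 784 (715 to 859) in artery-like cells of room air.

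**Figure D2:**
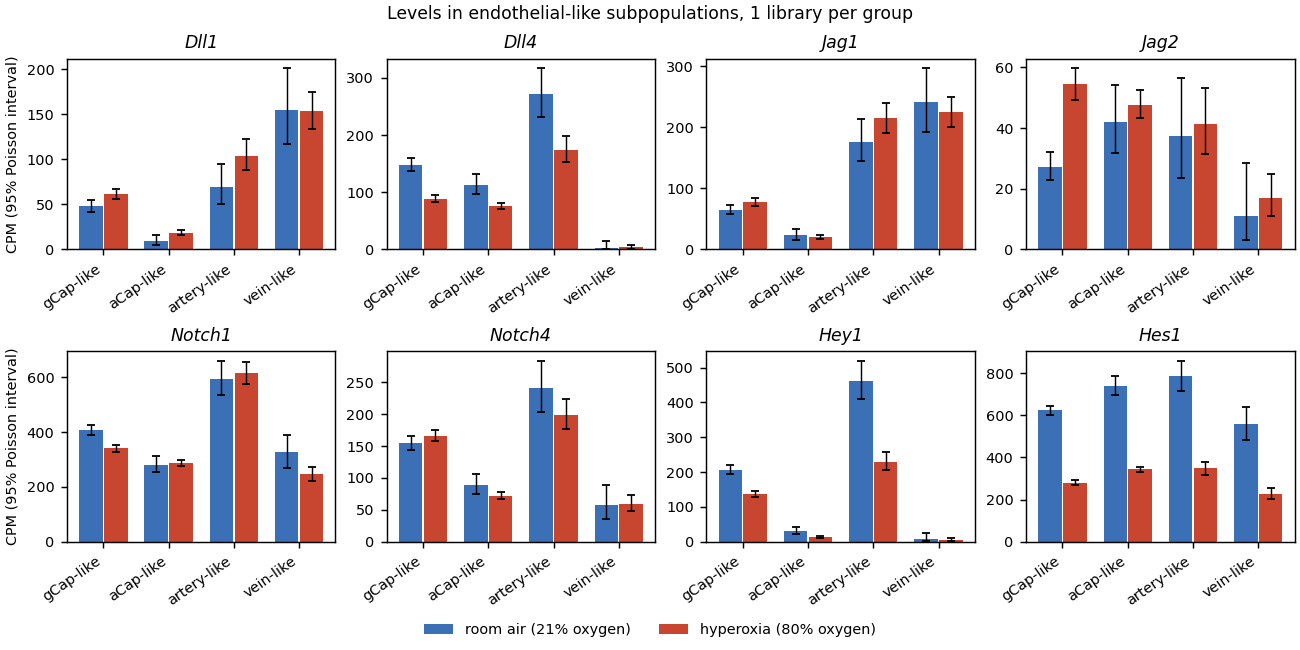
Bars give CPM in room air (blue) and hyperoxia (red) in the 4 endothelial-like types, 1 panel per gene with its own axis from 0, and lines the exact Poisson 95% intervals. *Hes1* was lower in hyperoxia in all 4 types, the *Hey1* and *Dll4* bars of hyperoxia stood below those of room air in gCap-, aCap- and artery-like cells, and *Jag2* in gCap-like cells was 27.2 CPM in room air and 54.4 in hyperoxia.

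Between the libraries, the targets and *Dll4* were lower and *Jag2* was higher in the endothelial-like cells of hyperoxia. Over all 997 endothelial-like cells of room air and 2513 of hyperoxia, 8 of the 10 members reached a mean of 10 CPM. Of these, 3 were lower (*Dll4*, *Hey1* and *Hes1*), where 8.61% of all 8335 genes tested in these cells were lower, and 1 was higher (*Jag2*), where 6.9% of all were higher. Ratios are given throughout as hyperoxia over room air, and their median on the log2 scale was -0.25 over the 8 members and 0.01 over all genes.

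*Hes1* was 656 CPM in room air and 306 in hyperoxia, a log2 ratio of -1.10 (-1.15 to -1.04). *Hey1* was 180 and 79.3 CPM, with a log2 ratio of -1.18 (-1.28 to -1.07). For *Dll4*, the levels of 141 and 82.3 CPM gave a log2 ratio of -0.78 (-0.89 to -0.67). The intervals of the 3 ratios lay wholly past 1.5-fold. *Jag2*, a ligand of the Serrate class, went in the other direction, from 29.7 to 47.2 CPM, at a log2 ratio of 0.67 (0.46 to 0.88), and its interval included ratios under 1.5-fold. It was no longer counted as higher (log2 ratio 0.49) when cells with any UMI of 6 genes of other lineages were left out.

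The other ligands and the receptors differed by less than 1.5-fold. *Jag1* was 73.7 CPM in room air and 73.1 in hyperoxia (log2 ratio -0.01, -0.15 to 0.13), and *Dll1* 47.3 and 52.3 CPM (0.14, -0.03 to 0.32). *Notch1* was 389 and 328 CPM (-0.25, -0.31 to -0.18) and *Notch4* 140 and 118 CPM (-0.25, -0.35 to -0.14). Both receptor intervals excluded a ratio of 1 and stayed short of 1.5-fold. *Notch2* (9.78 and 5.63 CPM) and *Notch3* (3.26 and 1.62 CPM) did not reach the level at which a ratio was read.

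The makeup of the endothelial-like cells differed between the libraries, since 162 of 997 cells in room air and 1100 of 2513 in hyperoxia were aCap-like, in which *Hey1* was 31.9 and 12.6 CPM. With the types of hyperoxia weighted by their UMI shares in room air, the log2 ratio of *Hey1* went from -1.18 to -0.68, and that of *Notch4* from -0.25 to 0.02. The ratios of *Hes1* (-1.17), *Dll4* (-0.68) and *Jag2* (0.73) moved little under the same weights. The dissociation-response genes, a list of 12 with *Fos* and *Jun*, summed to 5253 CPM in room air and 6302 in hyperoxia in these cells, and their part in the ratios was not tested.

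**Figure D3:**
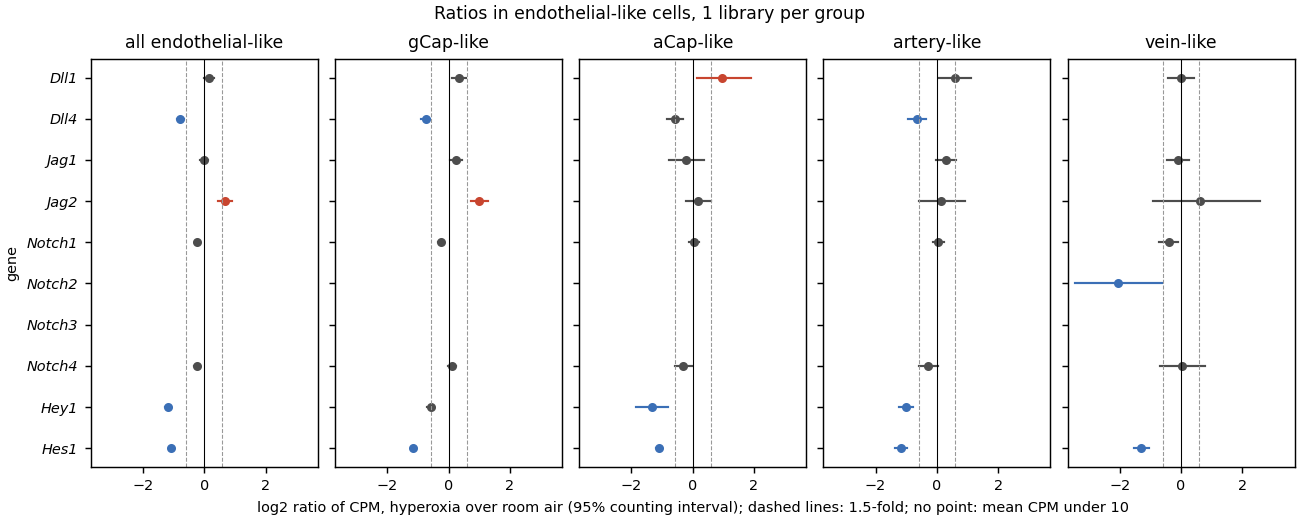
Points give the log2 ratio of CPM (hyperoxia over room air) and lines its exact 95% interval for all endothelial-like cells and the 4 types. Blue marks members counted as lower and red those counted as higher, dashed lines mark 1.5-fold, and genes with a mean under 10 CPM have no point. *Hes1* lay between -1.29 and -1.10 in all 5 panels, whereas *Jag2* was counted as higher in gCap-like cells and over all endothelial-like cells (0.67).

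In gCap-like cells, 2 of 8 members were lower (*Dll4* and *Hes1*, against 9.6% of all genes tested in them) and 1 was higher (*Jag2*, against 6.94%). *Hes1* was 623 CPM in room air and 279 in hyperoxia, *Dll4* 148 and 88.5, and *Jag2* 27.2 (22.8 to 32.1) and 54.4 (49.4 to 59.8). *Hey1* was 206 and 138 CPM, a log2 ratio of -0.58 (-0.71 to -0.46), just short of 1.5-fold. *Notch4* differed little, at 155 and 166 CPM (0.10, -0.03 to 0.23).

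In aCap-like cells, *Hey1* (31.9 and 12.6 CPM) and *Hes1* (738 and 344 CPM) were lower, where 8.2% of all genes were, and *Dll1* (9.42 and 18.4 CPM) was counted as higher, where 6.86% were. *Dll1* passed the floor only through the hyperoxia library, and its value of room air rested on 13 UMIs. Its log2 ratio of 0.96 had an interval from 0.15 to 1.90 and became 3.11 when cells with any UMI of 6 genes of other lineages were left out. Without doublet removal, the log2 ratio of *Hey1* in these cells was -0.47 in place of -1.34. *Dll4* was 113 and 75.7 CPM (-0.58, -0.83 to -0.32), short of 1.5-fold, and *Notch1* 282 and 288 CPM.

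In artery-like cells (64 and 141 cells), *Hes1* (784 and 347 CPM), *Hey1* (462 and 230 CPM) and *Dll4* (272 and 175 CPM) were lower, 3 of 8 members where 7.6% of all genes were lower. No member was higher there, where 8.46% of all genes were. The arterial levels of *Notch1* (0.05, -0.13 to 0.23), *Jag1* (0.28, -0.04 to 0.62) and *Notch4* (-0.28, -0.57 to 0.03) had log2 ratio intervals that included 0. The *Dll4* call rested on the setting, since its log2 ratio of -0.64 became -0.43 when double the expected number of doublets was removed. In vein-like cells (33 and 116 cells), *Hes1* was 556 and 227 CPM, and *Dll1* (-0.01, -0.44 to 0.43) and *Jag1* (-0.10, -0.44 to 0.26) had ratios near 1. *Notch2* was also counted as lower there, from 10 UMIs in each library, and passed the floor only through the room air library (27.7 and 6.73 CPM).

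The shares of cells with at least 1 UMI followed the levels. After each cell was thinned to 2000 UMIs, *Hes1* was found in 62.5% (59.2 to 65.8) of 856 endothelial-like cells in room air and 43.5% (41.3 to 45.6) of 2108 in hyperoxia, where 141 and 405 shallower cells were left out. The unthinned shares were 80.8% and 67.8%. The thinned share of *Hey1* was 25.6% (22.7 to 28.6) in room air and 13.4% in hyperoxia, that of *Dll4* 24.6% (21.8 to 27.7) and 14.6% (13.1 to 16.2), and that of *Jag2* 5.49% (4.06 to 7.23) and 9.87% (8.63 to 11.2). The unthinned shares were 44.9% and 28.3% for *Hey1*, 47.2% and 35.2% for *Dll4*, and 18.0% and 27.1% for *Jag2*. In B-like cells, the thinned shares of *Hey1*, *Dll4* and *Jag2* were between 0 and 0.428% in both libraries.

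Among 48 other genes of the pathway, 34 reached 10 CPM in endothelial-like cells, of which 4 were lower (*Nrarp*, *Maml2*, *Dtx3* and *Dtx3l*) and 1 was higher (*Fbxw7*), with a median log2 ratio of -0.17. These counts stand beside 8.61% of all genes lower and 6.9% higher in the same cells, and nothing particular to the pathway is read from them. *Nrarp*, a feedback inhibitor induced by Notch, was 108 CPM in room air and 62.2 in hyperoxia, a log2 ratio of -0.79 (-0.92 to -0.66). It was also lower in gCap-like (116 and 62.6 CPM) and artery-like cells (258 and 157 CPM) and was 39.9 and 45.0 CPM in aCap-like cells. Of the other targets, *Hes6* was 26.7 and 23.0 CPM, and *Hey2*, *Heyl*, *Hes5* and *Hes7* were each under 10 CPM in endothelial-like cells.

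None of the 8 genes of the nuclear complex was higher, and 1 was lower, the coactivator *Maml2* (48.8 and 26.6 CPM), which is close to the share of all genes. *Rbpj* itself was 64.4 and 51.2 CPM (-0.33, -0.49 to -0.17). None of the 8 tested genes of receptor cleavage passed 1.5-fold, with *Aph1a* at 180 and 182 CPM and *Adam10* at 144 and 158 CPM. The same was true of the 5 glycosyltransferases that modify the receptors, with *Mfng* at 99.3 and 127 CPM, and of the 3 tested genes of ligand endocytosis, with *Mib1* at 128 and 122 CPM. Of that last list, *Neurl3*, a ubiquitin ligase gene, was counted as lower in gCap-like cells (83.0 and 54.0 CPM) and as higher in aCap-like cells (31.9 and 82.5 CPM), and this difference between the types was not tested.

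Of the 8 tested genes of receptor turnover, *Fbxw7*, which marks the intracellular domain for degradation, was 64.1 CPM in room air and 119 in hyperoxia (0.90, 0.75 to 1.04). The Deltex genes *Dtx3* (24.4 and 12.9 CPM) and *Dtx3l* (46.5 and 23.5 CPM) were lower, and *Nedd4*, a ubiquitin ligase, was 743 and 650 CPM. The ligand genes *Dll3*, *Dlk1*, *Dlk2* and *Dner* were each below 1 CPM in endothelial-like cells of both libraries.

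In stromal-like cells, *Notch2* and *Hes1* were lower, 2 of 5 members tested where 5.21% of all genes were lower, and none was higher, where 5.19% were. *Notch2* was 81.6 CPM in room air and 46.5 in hyperoxia (-0.81, -0.93 to -0.69), and *Hes1* 175 and 105 CPM (-0.74, -0.82 to -0.66). Among the stromal-like types, *Notch2* was lower by the rule in smooth muscle- and pericyte-like cells only, with a ratio below 1 in the others. *Hes1* was lower in myofibroblast-, adventitial fibroblast- and pericyte-like cells, and above 1 in alveolar fibroblast-like cells. Pericyte-like cells, highest in both genes, were 109 of 862 stromal-like cells in room air and 163 of 2637 in hyperoxia. The part of this makeup in the lineage ratios was not tested. *Notch3* was 89.6 and 73.6 CPM (-0.28, -0.39 to -0.18) over all stromal-like cells, whose makeup differed between the libraries, and was counted as lower (-0.73) when double the expected number of doublets was removed. The 12 dissociation-response genes summed to 7016 CPM in room air and 10398 in hyperoxia in these cells.

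Pericyte-like cells, the vascular support cells, carried the highest *Notch3* of all 21 types, at 554 CPM in room air (510 to 601) and 755 CPM in hyperoxia (709 to 803). Smooth muscle-like cells came next (84.6 and 111 CPM), and adventitial fibroblast-like cells followed (40.7 and 26.7 CPM), with no overlap between neighbouring intervals in either library. The log2 ratio of *Notch3* was 0.45 (0.30 to 0.60) in pericyte-like and 0.39 (0.09 to 0.71) in smooth muscle-like cells, both short of 1.5-fold. It was counted as lower in adventitial fibroblast-like cells and, passing the floor only through the room air library, in alveolar fibroblast-like cells (17.3 and 9.42 CPM).

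*Jag1* in pericyte-like cells was 20.8 CPM (at most 31.4 by its interval) in room air, from 22 UMIs in 109 cells, and 59.7 (47.2 to 74.4) in hyperoxia, from 79 UMIs in 163 cells. The log2 ratio was 1.52 (0.83 to 2.28), the highest of any member counted in a type, where 7.3% of all genes were higher in these cells. After thinning, *Jag1* was found in 2.00% (0.243 to 7.04) of 100 pericyte-like cells and 10.3% (5.74 to 16.7) of 136, and without thinning in 16.5% and 30.7% at median depths of 9845 and 7753 UMIs. The thinned shares of B-like cells were 0.271% and 0.428%. The endothelial markers summed to 276 CPM in the pericyte-like cells of room air and 260 in those of hyperoxia. *Jag1* was also present in smooth muscle-like (43.4 and 45.7 CPM) and adventitial fibroblast-like cells (37.7 and 42.2 CPM). The part of free RNA in its pericyte ratio was not tested.

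In the same cells, *Notch2* (322 and 169 CPM) and *Hes1* (530 and 310 CPM) were lower, 2 of 6 members tested where 8.13% of all genes were lower. *Notch1* was 216 and 274 CPM (0.34, 0.10 to 0.59). Pericyte-like cells of the libraries fell mostly into different clusters, 94 of 109 cells of room air into cluster 11 and 123 of 163 cells of hyperoxia into cluster 10. When double the expected number of doublets was removed, *Hes1* in these cells was no longer counted as lower (-0.53).

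**Figure D4:**
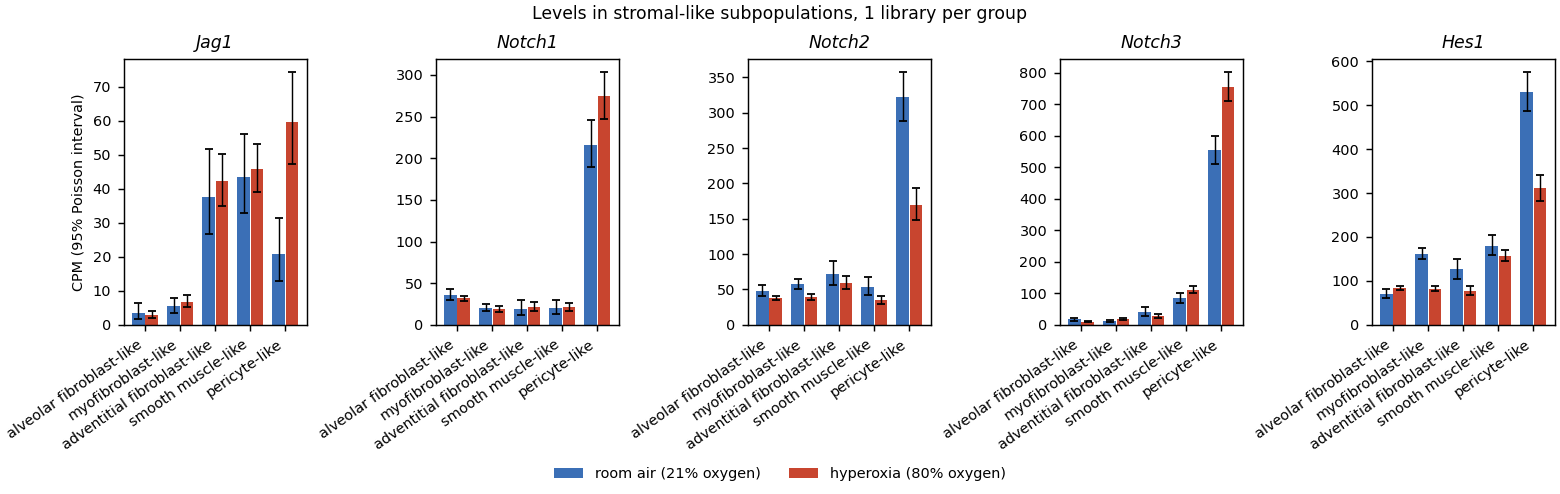
Bars give CPM in room air (blue) and hyperoxia (red) in 5 stromal-like types, 1 panel per gene with its own axis from 0, and lines the exact Poisson 95% intervals. *Notch1*, *Notch2*, *Notch3* and *Hes1* stood highest in pericyte-like cells, where *Jag1* was 20.8 CPM in room air and 59.7 in hyperoxia and *Notch2* 322 and 169 CPM.

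In epithelial-like cells, *Jag1*, *Notch2* and *Hes1* were lower, 3 of 4 members tested where 10.0% of all genes were lower, and none was higher, where 6.85% were. *Hes1* was 247 CPM in room air and 63.9 in hyperoxia, *Jag1* 48.8 and 24.6, and *Notch2* 53.1 and 27.8. These values rested in part on 26 deeply sequenced club-like (secretory airway) cells of room air, with a median of 54821 UMIs, against 3 in hyperoxia. They held 712 of the 1262 *Hes1* UMIs and 148 of the 249 *Jag1* UMIs of the epithelial-like cells in room air.

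The same genes were therefore read in AT2-like cells, the surfactant-producing cells (165 and 845 cells). In room air *Hes1* was 134 CPM (120 to 149), against 49.5 CPM (45.6 to 53.6) in hyperoxia, and *Notch2* was 52.6 (44.0 to 62.3) against 25.6 (22.8 to 28.6). The AT2-like cells also fell largely into different clusters, with 128 of 165 cells of room air in cluster 0 and 289 and 213 of the 845 of hyperoxia in clusters 1 and 2, which held 1 and 0 cells of room air. Both genes were lower, 2 of 4 members tested where 6.54% of all genes were lower and 6.36% were higher. *Jag1* was 34.1 and 26.2 CPM (-0.38, -0.73 to -0.02), short of 1.5-fold. The dissociation-response genes summed to 3343 CPM in room air and 1413 in hyperoxia over all epithelial-like cells, 10 of the 12 were lower, and their part in the *Hes1* ratio was not tested. In AT1-like cells, the thin gas-exchange cells, *Hes1* was 254 and 209 CPM, a log2 ratio of -0.28 whose interval included 0 (-0.57 to 0.01).

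In myeloid-like cells, *Notch2* (135 and 79.4 CPM) and *Hes1* (145 and 38.0 CPM) were lower, 2 of 3 members tested where 9.14% of all genes were lower, and none was higher, where 4.5% were. Among the myeloid-like types, *Notch2* was lower by the rule in interstitial macrophage- and dendritic-like cells only. It was 238 and 196 CPM in neutrophil-like, 212 and 187 in nonclassical monocyte-like and 169 and 113 in classical monocyte-like cells. Nonclassical monocyte-like cells, which patrol the vessel wall, held 687 of the 974 *Hes1* UMIs in room air and 190 of the 458 in hyperoxia. They numbered 252 of 760 myeloid-like cells in room air and 149 of 1412 in hyperoxia. The part of this makeup in the lineage ratios of *Hes1* and *Notch2* was not tested. Within them *Hes1* was 542 CPM (502 to 584) and 346 (298 to 398), a log2 ratio of -0.65 (-0.89 to -0.42), and in every other named myeloid-like or lymphocyte-like type *Hes1* was at or below 117 CPM. Alveolar macrophage-like cells held 36.4 CPM (28.8 to 45.4) and 6.16 (4.32 to 8.53), the lowest ratio of *Hes1* in any type (-2.56, -3.17 to -1.98), and 113 of the 153 cells of room air and 288 of the 326 of hyperoxia lay in clusters 5 and 2. With 6.16 CPM in hyperoxia, *Hes1* passed the floor there only through the room air library.

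In lymphocyte-like cells, *Notch2* (81.3 and 42.9 CPM) and *Hes1* (131 and 68.6 CPM) were lower, 2 of 4 members tested where 6.89% of all genes were lower, and none was higher, where 1.88% were. The *Hes1* value rested on unnamed clusters, since with named clusters only, an alternative chosen after the data were seen, its log2 ratio was 0.00 in place of -0.93. The unnamed lymphocyte-like cells of room air held 3395 CPM of the endothelial markers and those of hyperoxia 1521 CPM. In B-like cells *Hes1* was 95.2 and 96.2 CPM (0.02, -0.23 to 0.26), while *Notch2*, the receptor needed by marginal zone B cells, was 127 CPM (112 to 143) and 75.9 (68.0 to 84.5). In T-like cells *Notch1*, the receptor of T cell fate, was 92.7 and 99.6 CPM (0.10, -0.18 to 0.39).

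Across the cell types, *Hes1* and *Notch2* were lower in more types than any other member. *Hes1* was tested in all 21 types, had a ratio below 1 in 18 and was lower by the rule in 12, with a median log2 ratio of -0.69. *Notch2* was tested in 18 types, had a ratio below 1 in 17 and was lower in 8, with a median of -0.60. These counts include *Hes1* in alveolar macrophage-like and *Notch2* in vein-like cells, which passed the floor only through the room air library. The exceptions to a ratio below 1 were alveolar fibroblast-like, mast or basophil-like and B-like cells for *Hes1*, and mast or basophil-like cells for *Notch2*. Both genes were singled out after their values were seen, and neither had a type set as its background for free RNA.

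Of the 3749 genes tested in as many types as *Hes1*, 1.12% were lower in at least as many, and of the 5374 tested in at least as many as *Notch2*, 1.79% were. These types share their 2 libraries and are not independent. *Notch1* served as a contrast, since it was tested in 20 types, had a ratio below 1 in 10 and above 1 in 10, and passed 1.5-fold in none. Over all 97 pairs of a member and a type that were tested, 28 were lower and 3 higher, where 7.22% of all pairs of a gene and a type were lower and 6.36% higher. Of the 28, *Hes1* gave 12 and *Notch2* 8, and 4 passed the floor only through the room air library. Because the members were chosen with earlier results of these data known, nothing about the set is read from this count.

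**Figure D5:**
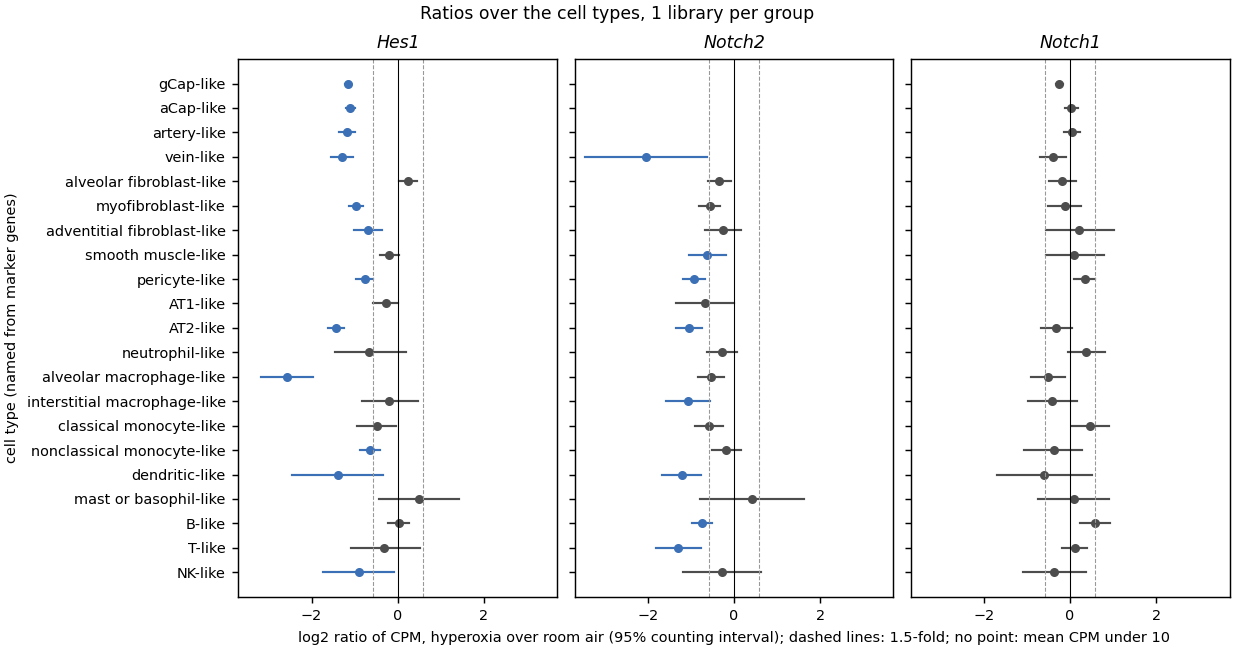
Points give the log2 ratio of CPM (hyperoxia over room air) of *Hes1*, *Notch2* and *Notch1* in 21 cell types and lines its exact 95% interval. Blue marks values counted as lower, dashed lines mark 1.5-fold, and types with a mean under 10 CPM have no point. *Hes1* was lower in 12 of 21 types and *Notch2* in 8 of 18, whereas the points of *Notch1* lay on both sides of 0. *Hes1* in alveolar macrophage-like and *Notch2* in vein-like cells passed the floor only through the room air library.

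The genes whose levels were most like those of the members were sought over 42 profiles, 21 cell types in 2 libraries, among 8226 genes. Pearson's r of log2(CPM + 1) is given as a description, because the profiles share libraries and differ in depth. *Dll4* and *Notch4* were most like *Robo4*, an endothelial guidance receptor (r = 0.87 and 0.91), and so was *Jag2* (0.86). *Hey1* was most like the arterial ligand gene *Efnb2* (0.87) and *Cxcl12* (0.86), and *Jag1* was most like *Npr1* (0.82) with the venous marker *Ephb4* among its 3 nearest (0.80). *Cxcl12* and *Ephb4* were also among the markers that named the artery-like and vein-like cells. *Dll1* was nearest to *Tmem252* (0.93) and *Ptprb* (0.91).

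*Notch3* was most like *Heyl*, itself a Notch target (0.92), followed by *Foxs1* and by *Cspg4*, which encodes the pericyte marker NG2. *Notch1* was nearest to *Arap3* (0.84), *Notch2* to *Prkcd* (0.80) and *Hes1* to *Taok1* (0.80). Among the members, *Jag2* and *Notch4* (0.86), *Dll4* and *Notch4* (0.82), *Dll1* and *Notch4* (0.81) and *Dll4* and *Jag2* (0.81) had the most similar profiles, although *Dll4* was lower and *Jag2* higher in the gCap-like cells of hyperoxia. *Notch2* ran against *Dll1* most strongly (-0.67).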

How the data were processed

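Lungs were dissociated, 8 mice per group were pooled, and 1 droplet library of 3′ ends was made per group. The deposited values are raw UMI counts per gene and barcode, which the authors made with Cell Ranger (2.1.1 per their processing notes, 3.1.0 per the file headers, and a later version in the methods) on a mouse reference. The labels and the methods also name different versions of the kit. The members and the gene lists were chosen with earlier results of these data known. From the counts, cells with under 500 genes or over 20% mitochondrial UMIs were left out. Simulated doublets were used to score cells, and 0.8% per 1000 cells were removed (3.39% of the room air and 10.6% of the hyperoxia cells). Cells were clustered by the Leiden method (leidenalg 0.10.2, igraph 0.11.9) at resolution 1 on 30 components of 2000 variable genes and 20 neighbours, first into lineages and then into types, without Notch pathway, mitochondrial and sex-linked genes. Clusters were named from fixed markers. The naming rule was relaxed after the clusters were seen. A cluster then stayed unnamed with fewer than 3 raised markers. It also did so with more markers of another type or lineage than of its own among its 10 leading genes. The last ground was no own marker among these genes, which at the lineage level counted only for clusters with few UMIs.

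UMIs were summed per type and library and divided by the summed total. No test could be run between single libraries, and intervals were exact (scipy 1.17.1) at 95%. The members were named in full, other genes by the fixed lists and the 3 most similar profiles among genes reaching 50 CPM. Alternatives changed doublet removal, filters, clustering, naming, averaging and scaling (TMM factors of edgeR 4.0.16 and size factors of DESeq2 1.42.0), and the ratio code was tested on simulated data.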

Additional observations from a re-analysis of the deposited data

Results flagged for a closer look

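*Jag1* stood on opposite sides of 1 in different cell types. On the log2 scale its ratio (hyperoxia over room air) was 1.52 in pericyte-like cells, against -0.99 in epithelial-like, -0.84 in alveolar macrophage-like and -1.39 in dendritic-like cells. With 1 library per group, the difference between these cell types was not tested. The pericyte value rested on 22 and 79 UMIs and the dendritic value on 12 and 9. The epithelial value was no longer counted as lower in 5 of 13 other settings. Among these was the setting without unnamed and club-like cells, the latter 26 in room air and 3 in hyperoxia. In AT2-like cells the log2 ratio of *Jag1* was -0.38 and was not counted as lower. In the alveolar macrophage-like cells, *Jag1* was 14.7 and 8.22 CPM, so that it passed the floor of 10 CPM only through the room air library.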

How the results depend on the processing

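No paired analysis was possible because each group had 1 library, and for the same reason no replicate could be left out. Other settings were run for the lineages and for gCap-, aCap-, artery-, pericyte- and AT2-like cells only. Calls in the remaining types, such as *Hes1* in vein-like and *Notch2* in B-like cells, were not rerun. Over the 27 log2 ratios of members counted as lower or higher in the classes that were rerun, 348 values were computed. Of these, 347 kept their sign and 326 their call. The number of members lower in endothelial-like cells was 3 and became 5 with no filter on low genes. The number higher there was 1 and became 0 with a mean of at least 50 CPM, with a fold of 2, and with cells that had no UMI of 6 genes of other lineages. In stromal-like cells the number lower went from 2 to 0 at a fold of 2. In epithelial-like cells it went from 3 to 1 with a mean over single cells, at 50 CPM and at a fold of 2. *Hes1* in lymphocyte-like cells reversed from -0.93 to 0.0048 (log2) with named clusters only, and its call held in 5 of 13 settings. *Hes1* in the endothelial-like cells lay between -1.12 and -1.01 and *Hey1* between -1.44 and -1.14. *Jag1* in pericyte-like cells lay between 1.16 and 1.67, and these ratios each kept their call in 13 of 13 settings. The weighting by room air UMI shares, which gave -0.68 for *Hey1*, was not among these settings. For single types, the setting with named clusters only used the same cells as the main setting, so that its value could not differ. *Hey1* in gCap-like cells was counted as lower in 3 of 13 and *Dll4* in aCap-like cells in 4 of 13, and *Dll4* in artery-like cells kept its call in 8 of 12. In cells with no UMI of the 6 genes, *Jag1* in aCap-like cells reached 1.95 and *Dll1* 3.11. The cause of these changes was not tested. Values from few UMIs, such as *Dll1* in aCap-like and *Notch2* in vein-like cells, are limited by depth.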
